A study of Mus musculus with 47 samples.

Results

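The comparison described here is that of wild-type hippocampus after a high-fat diet (WT-HFD) with wild-type hippocampus after a standard diet (WT-SD). It took the 6 WT-HFD and 6 WT-SD hippocampus libraries, 12 of the 47 RNA-seq libraries of the study, and every gene whose counts averaged 50 or more in the hippocampus libraries, which left 13272 of the 31751 genes in the table. The genes nearest that limit were *Suv39h2* and *Iyd*, left out with a mean count of 49.96 each, and *1810014B01Rik* and *2300009A05Rik*, kept at the limit itself. The mice were male C57BL/6 animals without a transgene, fed one of the diets from weaning until about a year of age, and each library came from one animal. They were the wild-type arm of a design whose other arm carried a human transgene under the neuronal Thy1 promoter (TG-SD and TG-HFD). The WT colony was kept beside the TG colony and descends from the same outcross. The 12 TG hippocampus libraries shared the fit and gave the diet difference under the transgene, and 11 WT brainstem libraries gave the diet difference in another region.

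The hippocampus forms and retrieves memories through excitatory relays from dentate granule cells to the pyramidal cells of CA3 and CA1. Its neurons switch on immediate early genes, such as the *Egr*, *Fos* and *Jun* transcription factors, within minutes of synaptic activity, and place AMPA-type glutamate receptors at synapses with the help of scaffold proteins such as GRIP. The brain makes nearly all of its own cholesterol, because dietary cholesterol carried in lipoproteins does not cross the blood-brain barrier, and its microglia clear debris and supply complement.

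The wild-type libraries held between 11945971 and 17328447 counts, and total counts did not separate the diets (two-sided exact permutation test, p = 0.537). Markers of granule and pyramidal neurons were all measured, with summed levels of 4680 to 5080 CPM, the counts scaled to a common library total, in WT-SD and 4640 to 5110 CPM in WT-HFD. Most of each sum was *Camk2a*, at 3570 to 4070 CPM in WT-SD and 3530 to 4010 CPM in WT-HFD, so the sums say little about the other markers. Hindbrain position genes, nearly all of them *Hox* genes, reached at most 0.212 CPM in sum, and 7 of the 12 had no entry among the deposited counts.

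No gene met the study's limits for differential expression between the diets, an adjusted p of at most 0.05 and a log2 fold change of 0.3 or more in size (0 of 13272 genes, 0.0%). The fit held 4 surrogate variables, which are covariates estimated from the counts themselves. They were not balanced over the diets. The first ran from -0.19 to 0.20 in WT-SD and from -0.07 to 0.34 in WT-HFD. The second ran from -0.32 to 0.18 and from 0.06 to 0.49. A covariate that differs between the diets can take part of a diet difference with it. The test was the quasi-likelihood test of edgeR with Benjamini-Hochberg adjustment. In this fit, the lowest adjusted p was 0.0993. At an unadjusted p of at most 0.05 there were 850 genes (6.4%), of which 510 were higher (3.84%) and 340 lower (2.56%) in WT-HFD. DESeq2 with the same covariates called 3 genes. The median log2 fold change over all genes was 0.0048, 163 genes (1.23%) lay beyond 0.3 in either direction, and the middle of the distribution, from the 5th to the 95th percentile, ran from -0.15 to 0.15. A gene's standard error had a median of 0.07 on the log2 scale. All genes named below as higher or lower therefore had adjusted p-values above the limit in the reported fit, and "higher" and "lower" give the side on which they lay.

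In the TG hippocampus the same diets gave 0 calls and 940 genes at the unadjusted limit (7.08%), 424 higher (3.19%) and 516 lower (3.89%), by the same test. The interaction of genotype and diet gave 0 calls, 794 genes at the unadjusted limit (5.98%) and a lowest adjusted p of 0.131. Brainstem of WT mice gave 0 calls and 724 genes at the unadjusted limit (5.43% of 13340), with a lowest adjusted p of 0.0607. The difference between the regions in their diet response gave 0 calls among 12619 genes, 602 at the unadjusted limit (4.77%) and a lowest adjusted p of 0.95. The study took both regions from the animals of each group, so libraries of the regions may share a mouse. The fit of both regions held no term for the animal. For none of these contrasts was a response shown to be particular to the WT hippocampus at the adjusted limit.

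Before the gene values, the promoters of a few of the genes to which the comparison returns are shown, since immediate early genes and cholesterol genes are known for the short elements in front of them. Each stretch is the 250 bases before the RefSeq start in GRCm38.p6, written 5′ to 3′ on the gene's strand. Capitals mark a cAMP response core (TGACG, or CGTCA on the other strand), a zinc finger EGR site (GCGGGGGCG, or CGCCCCCGC) or a CCAAT box (CCAAT, or ATTGG). *Egr4* lies at chr6:85513590-85513839 on the minus strand, *Junb* at chr8:84978749-84978998 on the minus strand, *Fosl2* at chr5:32136222-32136471 on the plus strand and *Nsdhl* at chrX:72918271-72918520 on the plus strand.
Egr4: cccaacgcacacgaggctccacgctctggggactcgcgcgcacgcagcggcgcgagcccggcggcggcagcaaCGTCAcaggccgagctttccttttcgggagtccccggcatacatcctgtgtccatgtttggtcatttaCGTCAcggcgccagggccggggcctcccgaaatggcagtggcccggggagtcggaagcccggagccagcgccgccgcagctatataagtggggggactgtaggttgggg
Junb: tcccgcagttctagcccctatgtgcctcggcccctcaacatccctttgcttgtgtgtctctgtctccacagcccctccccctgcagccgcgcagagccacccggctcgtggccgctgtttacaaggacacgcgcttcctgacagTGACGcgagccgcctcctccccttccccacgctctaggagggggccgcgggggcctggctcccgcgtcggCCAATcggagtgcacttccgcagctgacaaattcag
Fosl2: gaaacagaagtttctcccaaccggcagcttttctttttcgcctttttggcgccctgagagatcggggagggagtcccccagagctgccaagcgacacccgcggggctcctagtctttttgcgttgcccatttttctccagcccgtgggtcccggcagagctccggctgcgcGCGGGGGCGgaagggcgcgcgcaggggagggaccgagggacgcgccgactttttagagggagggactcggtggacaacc
Nsdhl: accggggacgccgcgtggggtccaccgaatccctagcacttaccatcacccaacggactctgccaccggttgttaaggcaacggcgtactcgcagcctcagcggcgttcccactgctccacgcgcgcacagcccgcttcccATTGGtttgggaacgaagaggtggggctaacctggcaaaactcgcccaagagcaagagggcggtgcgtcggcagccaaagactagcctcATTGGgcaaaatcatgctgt
*Egr4* held 2 cAMP response cores, *Junb* held 1 and a CCAAT box, *Fosl2* held 1 EGR site, and *Nsdhl* held 2 CCAAT boxes, the element that NF-Y binds beside sterol-responsive sites. In windows of 250 bases over 32851 RefSeq promoters, 17.8% held that core, 2.57% the EGR site and 33.8% the CCAAT box, so a match to the first or the last is common. Promoters of *Egr3*, *Nptx2* and *Stard4* are not shown.

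Among genes of glutamate receptors and their partners, the lowest p was that of *Grip2*, which encodes a scaffold with several PDZ domains that binds AMPA receptor subunits. Normalized counts (counts divided by the library's effective size, on the scale of the mean library) in the 6 WT-SD libraries were 128, 115, 151, 129, 235 and 219. In the 6 WT-HFD libraries they were 263, 255, 271, 262, 272 and 252. Every WT-HFD library lay above every WT-SD library, and the WT-HFD libraries varied little, while 4 of the WT-SD libraries lay far below the other 2. The means were 163 ± 51.1 (SD, n = 6) in WT-SD and 262 ± 8.13 (SD, n = 6) in WT-HFD, a ratio of 1.61, and the fitted log2 fold change was 0.75 (SE 0.16, edgeR, adjusted p = 0.123). In TG the log2 fold change was -0.31 (SE 0.14, adjusted p = 0.623), and the interaction of genotype and diet was -1.06 (SE 0.21, adjusted p = 0.131). Brainstem gave a log2 fold change of 0.27 (adjusted p = 0.918). The study named *Grip2* from these samples, so its value here is not independent evidence.

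The paralog *Grip1*, which encodes a scaffold of the same kind, lay on the other side. Its normalized counts ran from 252 to 356 with a median of 314 in WT-SD, and from 228 to 310 with a median of 255 in WT-HFD, with a fitted log2 fold change of -0.25 (SE 0.08, adjusted p = 0.635). The ranges overlapped. Of 31 tested genes for ionotropic glutamate receptors and their partners, 4 were higher (12.9%) and 3 lower (9.68%) at the unadjusted limit, around a median log2 fold change of 0.01. Of all tested genes, 3.84% were higher and 2.56% lower. Without surrogate variables 8 of the 31 were higher and 1 lower, beside 6.6% and 2.54% of all tested genes. With a GC offset in their place 2 were higher and 1 lower, beside 2.97% and 2.77%. Besides *Grip2*, the higher ones were *Shank1*, a scaffold of the postsynaptic density, at 0.13 (SE 0.04, adjusted p = 0.635), *Cacng3*, an AMPA receptor auxiliary subunit, at 0.15 (SE 0.06, adjusted p = 0.721), and *Grin3a*, an NMDA receptor subunit, at 0.11 (SE 0.05, adjusted p = 0.756). Beside *Grip1*, the kainate receptor subunit *Grik4* at -0.15 (SE 0.06, adjusted p = 0.721) and the AMPA receptor auxiliary gene *Shisa6* at -0.10 (SE 0.05, adjusted p = 0.756) were lower. In TG, *Shank1* had a fitted log2 fold change of -0.09 (SE 0.03, adjusted p = 0.551), and its interaction had an adjusted p of 0.376.

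**Figure D1:**
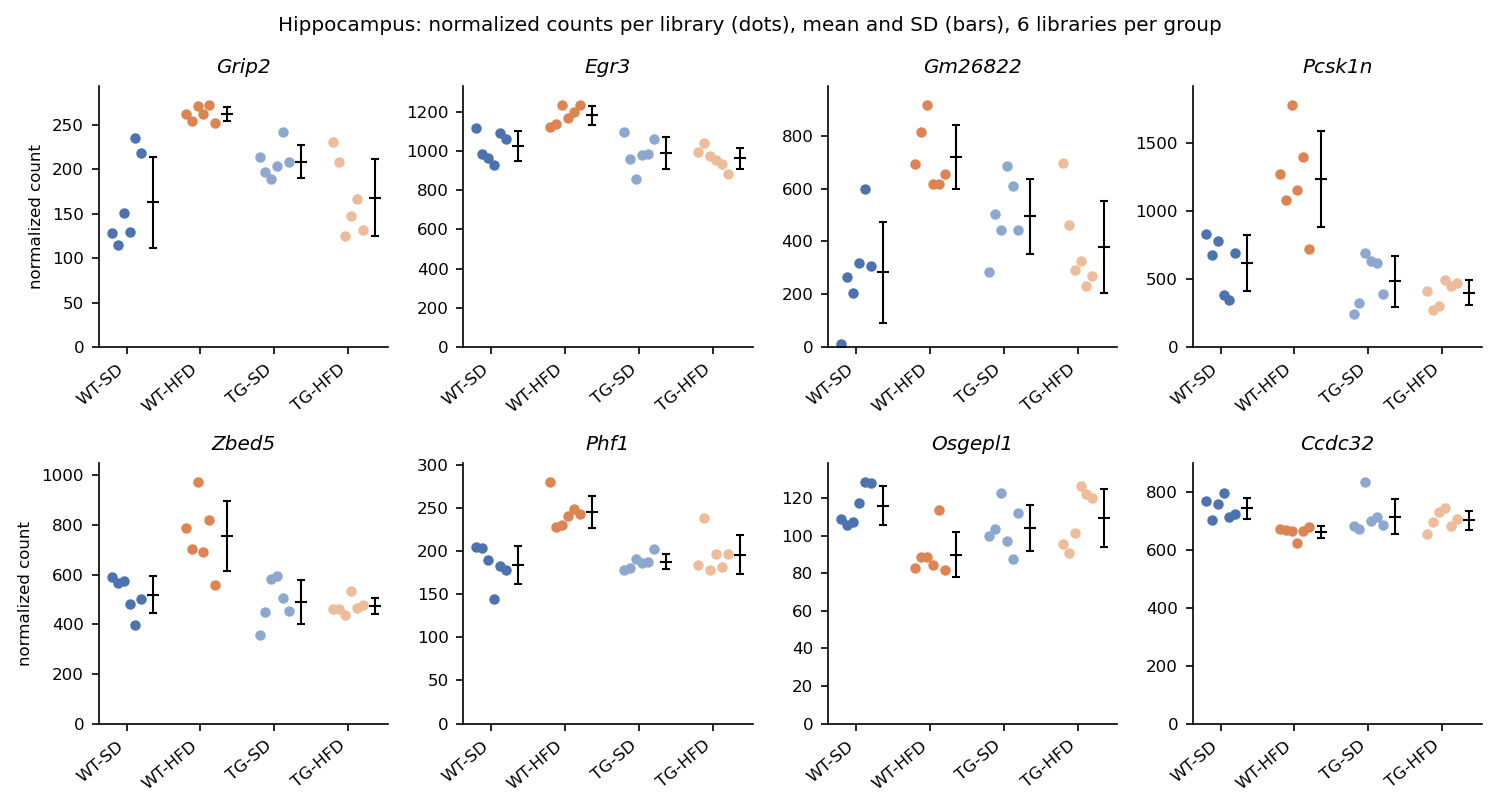
Normalized counts of 8 genes in the hippocampus libraries of WT-SD, WT-HFD, TG-SD and TG-HFD mice, 6 libraries per group. Dots are libraries and bars the mean with SD. *Grip2*, *Egr3*, *Gm26822* and *Phf1* do not overlap between the WT diets on the higher side, *Ccdc32* does not on the lower side, and *Pcsk1n*, *Zbed5* and *Osgepl1* overlap.

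Among the immediate early genes, *Egr3*, a zinc finger transcription factor induced by synaptic activity, did not overlap between the diets. Its normalized counts in WT-SD were 1118, 986, 963, 928, 1092 and 1060, and in WT-HFD 1119, 1136, 1232, 1169, 1199 and 1232. The lowest WT-HFD library and the highest WT-SD library lay next to each other, so the groups were separated by a narrow margin. The means were 1025 ± 76.2 (SD, n = 6) and 1181 ± 48.0 (SD, n = 6), with a fitted log2 fold change of 0.21 (SE 0.05, adjusted p = 0.298). In TG the value was -0.05 (SE 0.05, adjusted p = 0.893), and the interaction was -0.27 with an adjusted p of 0.492.

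Of 25 tested immediate early genes, 5 were higher (20%) and 0 lower, against 3.84% and 2.56% of all tested genes. The list's median log2 fold change was 0.09. The list had a median GC content of 55%, and 9 of its members were higher without surrogate variables but 2 with a GC offset in their place. Of all tested genes, 6.6% were higher without surrogate variables and 2.97% with the offset. *Egr4*, a relative of *Egr3* whose promoter is printed above, ran from 49.3 to 80.9 with a median of 68.9 in WT-SD and from 77.4 to 133 with a median of 103 in WT-HFD. Only 1 WT-HFD library reached into the WT-SD range, and the log2 fold change was 0.35 (SE 0.14, adjusted p = 0.721). *Junb*, a partner of FOS in the AP-1 factor, ran from 132 to 240 with a median of 200 in WT-SD and from 232 to 406 with a median of 312 in WT-HFD, and again 1 WT-HFD library reached into the WT-SD range. It had a fitted difference of 0.25 on the log2 scale (SE 0.10, adjusted p = 0.721), and without surrogate variables it was 0.72 (adjusted p = 0.154).

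*Fosl2*, another AP-1 member, had a fitted log2 fold change of 0.14 (SE 0.06, adjusted p = 0.721), and *Nptx2*, a secreted pentraxin that gathers AMPA receptors at synapses, one of 0.19 (SE 0.08, adjusted p = 0.721). *Fosl2* was also higher in TG (0.12, SE 0.05, adjusted p = 0.563), while *Nptx2* was lower there (-0.19, SE 0.07, adjusted p = 0.549) and had an interaction with adjusted p = 0.602. The familiar members *Egr1* at 0.17 (SE 0.10, adjusted p = 0.851) and *Arc* at 0.09 (SE 0.13, adjusted p = 0.952) did not pass the unadjusted limit. In TG 2 members of the list were higher and 2 lower, around a median of -0.01, beside 3.19% and 3.89% of all tested genes. Without WT-SD replicate 3 the median was 0.01. The number of higher members was 11 without WT-HFD replicate 4 and 10 without WT-HFD replicate 8, and it was 2 without WT-SD replicate 8, 3 without WT-HFD replicate 3 and 2 in the WT libraries alone with surrogate variables estimated on them, so the list's values moved with single libraries. Of all 13272 tested genes, 405 to 586 were higher with 1 library left out, and 335 in the WT libraries alone.

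**Figure D2:**
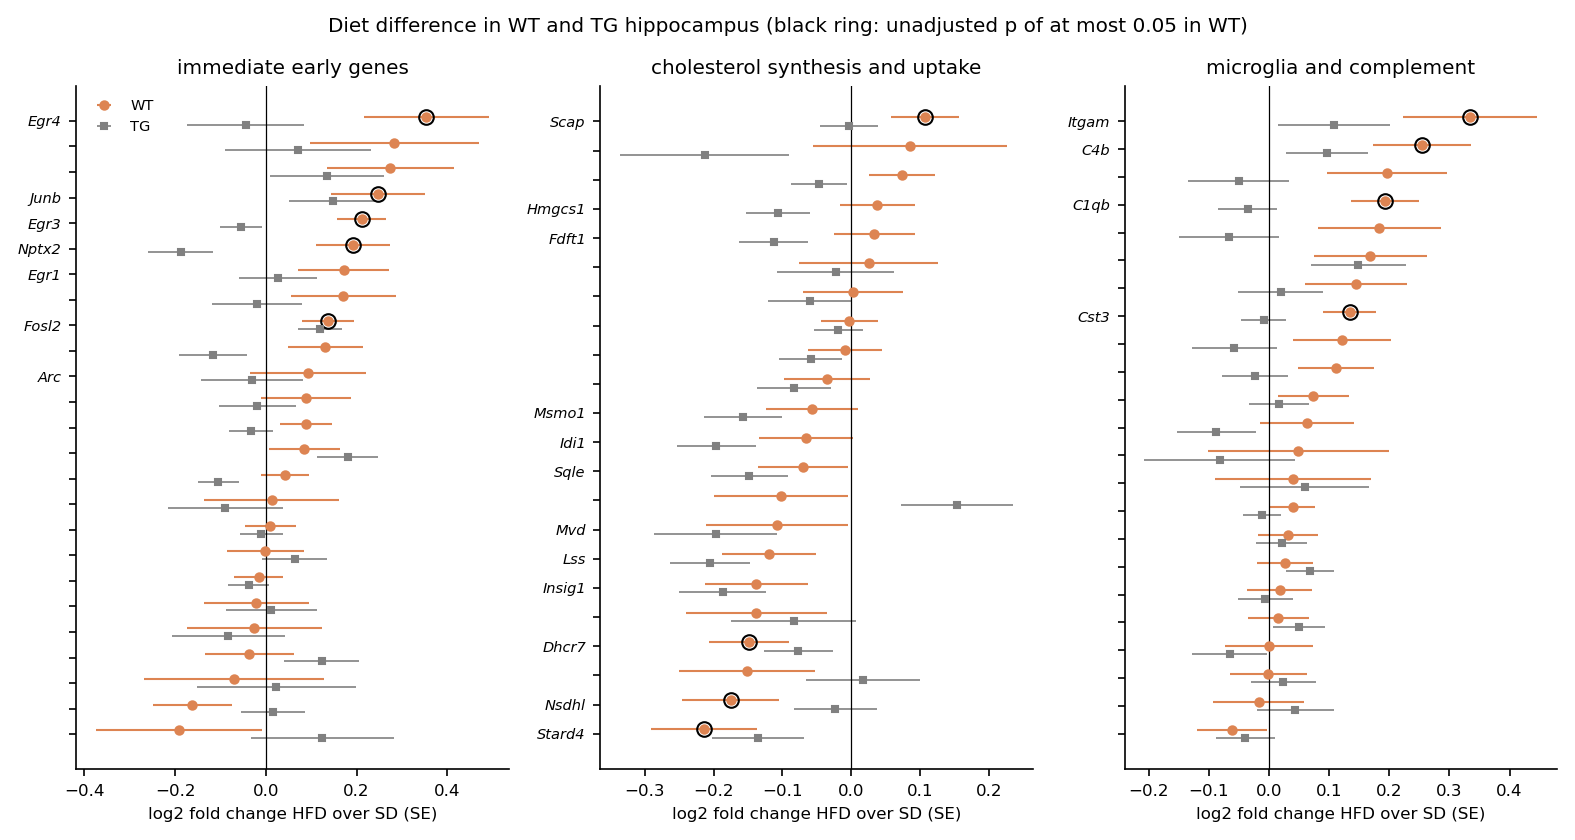
Log2 fold change of HFD over SD with its SE in WT (orange circles) and TG (grey squares) hippocampus for the tested immediate early, cholesterol, and microglia and complement genes. Genes described in the text are labelled, and 2 cholesterol genes are not drawn. Black rings mark an unadjusted p of at most 0.05 in WT: 5 immediate early genes on the higher side, 3 cholesterol genes on the lower and 1 on the higher side, and 4 microglia and complement genes on the higher side.

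Genes of cholesterol synthesis and uptake lay mostly below zero. Of 24 tested, 4 were lower (16.7%) and 1 higher (4.17%) at the unadjusted limit, with a median log2 fold change of -0.07. Of all tested genes, 2.56% were lower and 3.84% higher. *Stard4*, which carries cholesterol between membranes, ran from 310 to 440 with a median of 321 in WT-SD and from 275 to 319 with a median of 290 in WT-HFD. Of the WT-HFD libraries 5 lay below every WT-SD library, and the log2 fold change was -0.21 (SE 0.08, adjusted p = 0.72).

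*Dhcr7*, the enzyme of the last step of cholesterol synthesis, stood at -0.15 (SE 0.06, adjusted p = 0.721), and *Nsdhl*, a sterol dehydrogenase of the later steps whose promoter is printed above, at -0.18 (SE 0.07, adjusted p = 0.721). The higher member was *Scap*, which escorts the SREBP factors that switch these genes on, at 0.11 (SE 0.05, adjusted p = 0.744). In TG 3.89% of all tested genes were lower and 3.19% higher. Of the list, 8 members were lower there and 0 higher, with a median of -0.08. The 8 were *Hmgcs1*, *Mvd*, *Idi1*, *Fdft1*, *Sqle*, *Lss*, *Msmo1* and *Insig1*. None of these 8 was among the 4 of WT, and the interaction passed the unadjusted limit for 0 of the 24. The number of lower members in WT was 6, with a median of -0.12, in the WT libraries alone with their own surrogate variables, and 2 without surrogate variables. Leaving out 1 library gave 0 to 7 lower members, with 0 and a median of 0.02 without WT-SD replicate 3, 1 without WT-HFD replicate 8 and 7 without WT-HFD replicate 7. Of all 13272 tested genes, 344 were lower in the WT libraries alone, 337 without surrogate variables and 315 to 468 with 1 library left out. Of 12 genes of cholesterol export and turnover 0 passed, and of 18 of fatty acid synthesis the only one was *Me1*, malic enzyme, at -0.10 (SE 0.04, adjusted p = 0.737).

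Of 23 tested microglia and complement genes, 4 were higher (17.4%) and 0 lower, and 20 had a positive log2 fold change, with a median of 0.06. Of all tested genes, 3.84% were higher and 2.56% lower. With 1 or 2 surrogate variables 9 of the 23 were higher, beside 1170 and 1248 of all 13272 tested genes. With a GC offset in place of surrogate variables 2 were higher, beside 2.97% of all tested genes. *C1qb*, a chain of the first complement component, ran from 516 to 667 with a median of 568 in WT-SD and from 592 to 778 with a median of 636 in WT-HFD. Its ranges overlapped, and the log2 fold change was 0.19 (SE 0.06, adjusted p = 0.608). *Itgam*, an integrin of microglia and other myeloid cells, stood at 0.33 (SE 0.11, adjusted p = 0.635), *C4b*, a complement component made by glia, at 0.25 (SE 0.08, adjusted p = 0.635), and *Cst3*, a protease inhibitor abundant in microglia, at 0.13 (SE 0.04, adjusted p = 0.635). In bulk tissue, more cells of a type and more RNA per cell cannot be told apart. In TG none of the 23 passed the unadjusted limit in either direction, and the median was -0.01.

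Of 13 interferon and MHC class I genes, 3 were higher (23.1%): *Ifit3* at 0.39 (SE 0.15, adjusted p = 0.721), its near copy *Ifit3b* at 0.42 (SE 0.17, adjusted p = 0.721) and *Lgals3bp* at 0.22 (SE 0.10, adjusted p = 0.737). *Ifit3* and *Ifit3b* are so alike that reads may have been split between them. None of the 13 passed without surrogate variables, where 6.6% of all tested genes were higher, against 3.84% in the reported fit. The median of the 13 was 0.05 in WT hippocampus and 0.09 in WT brainstem, where 0 passed. Of 12 GABA-A receptor subunit genes 3 were higher (25%) around a median of 0.04. Without surrogate variables 0 passed and the median was -0.03.

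**Figure D3:**
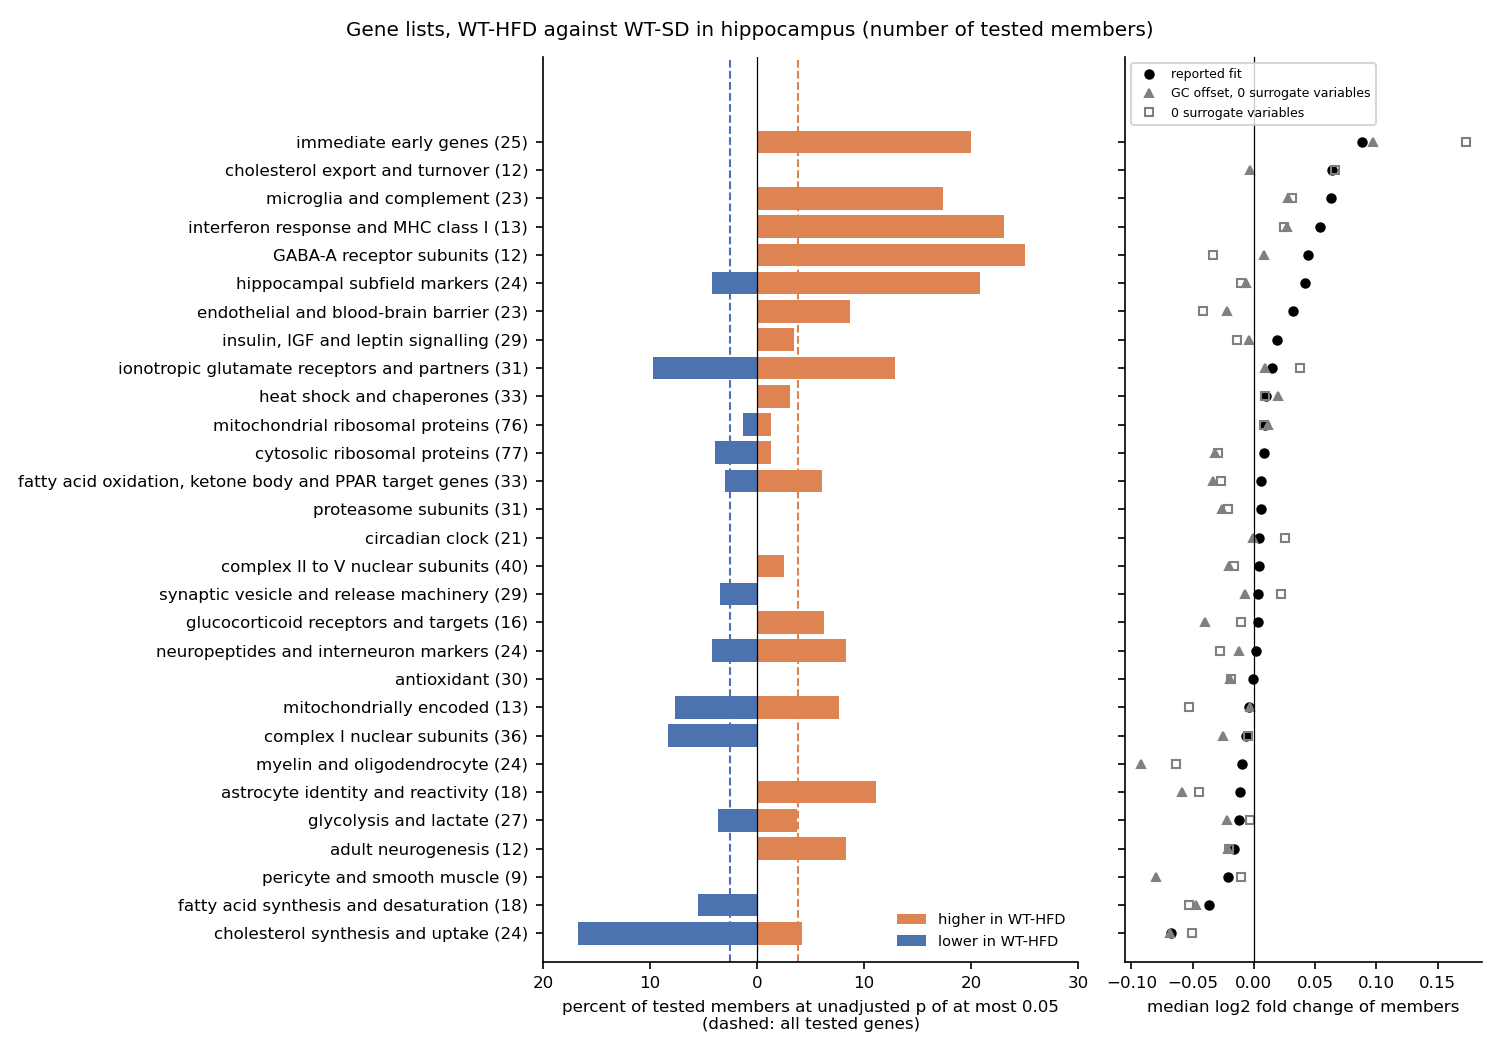
Gene lists in the WT hippocampus, with the number of tested members in brackets. Left, bars give the percent of members higher (orange, to the right) or lower (blue, to the left) in WT-HFD at an unadjusted p of at most 0.05, with dashed lines for all tested genes at 3.84% and 2.56%. Right, the median log2 fold change in the reported fit (circles), without surrogate variables (squares) and with a GC offset (triangles). Immediate early genes lie to the right of zero and cholesterol synthesis genes to the left in all 3 fits.

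Hippocampal subfield markers had 5 of 24 members higher (20.8%) and 1 lower (4.17%), against 3.84% and 2.56% of all tested genes. The CA1 marker *Wfs1*, an endoplasmic reticulum protein, ran from 1083 to 1698 with a median of 1366 in WT-SD and from 1396 to 1973 with a median of 1668 in WT-HFD, with a fitted log2 fold change of 0.24 (SE 0.10, adjusted p = 0.721). *Mpped1* at 0.14 (SE 0.05, adjusted p = 0.635) and the transcription factor *Pou3f1* at 0.20 (SE 0.09, adjusted p = 0.737) were higher too, and the CA3 marker *Grik4* was the lower one. The median of the list was 0.04 in the reported fit, -0.01 without surrogate variables and -0.0067 with the GC offset, so its direction turned.

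Of 33 genes of fatty acid oxidation, ketone bodies and PPAR targets, 2 were higher (6.06%) and 1 lower (3.03%), against 3.84% and 2.56% of all tested genes. *Slc27a1*, a fatty acid transporter, stood at 0.11 (SE 0.05, adjusted p = 0.768), and *Slc25a20*, the carnitine carrier of the inner mitochondrial membrane, at -0.21 (SE 0.09, adjusted p = 0.721).

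For the lists that follow, 3.84% of all tested genes were higher and 2.56% lower in the reported fit. Of 36 nuclear genes of respiratory complex I, 3 were lower (8.33%), among them *Ndufb7* at -0.18 (SE 0.05, adjusted p = 0.513), whose direction turned with 1 or 2 surrogate variables. Of 40 genes of complexes II to V, 1 was higher, *Cyc1* at 0.10 (SE 0.04, adjusted p = 0.721), whose direction turned with a GC offset. Of 29 insulin, IGF and leptin signalling genes the only one to pass was *Igfbp4*, an IGF-binding protein, at 0.18 (SE 0.05, adjusted p = 0.496). None of 21 circadian clock genes, 30 antioxidant genes, 24 myelin genes or 31 proteasome genes passed the unadjusted limit in the reported fit. With 2 surrogate variables 4 clock genes were higher, beside 1248 of all 13272 tested genes. With 1, antioxidant genes had 5 higher and 3 lower, and proteasome genes 1 higher and 3 lower. That fit had 1170 higher and 566 lower among all tested genes. Without WT-SD replicate 3, myelin genes had 5 lower, beside 468 of all tested genes. In the reported fit 1 of 16 glucocorticoid receptor and target genes and 1 of 33 chaperone genes were higher. Of 29 vesicle release genes 1 was lower, and of 77 cytosolic ribosomal protein genes 1 was higher and 3 were lower. The neuropeptide genes *Npy* at -0.15 (SE 0.06, adjusted p = 0.721) and *Vgf*, a granin-like secretory protein, at 0.13 (SE 0.05, adjusted p = 0.721) lay on opposite sides.

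Over all genes, normalized counts of the WT diets did not overlap for 38 genes on the higher side (0.286%) and 24 on the lower side (0.181%), of which 22 and 14 also passed the unadjusted limit. In TG the corresponding numbers were 2 (0.0151%) and 1 (0.00753%). The normalized counts were not corrected by surrogate variables or a GC offset. In the reported fit 940 genes passed the unadjusted limit in TG and 850 in WT. *Phf1*, a Polycomb-associated protein, ran from 145 to 205 in WT-SD and from 228 to 281 in WT-HFD (log2 fold change 0.35, SE 0.09, adjusted p = 0.298). *C1qtnf4*, a secreted relative of complement C1q, ran from 149 to 262 and from 271 to 567 (0.41, SE 0.11, adjusted p = 0.409), and *Prr7*, a membrane protein of the postsynaptic density, from 27.0 to 88.4 and from 88.9 to 169 (0.47, SE 0.14, adjusted p = 0.635). *Fyb*, an adaptor protein of immune cells, ran from 48.9 to 61.4 and from 64.0 to 84.2 (0.48, SE 0.15, adjusted p = 0.635).

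On the lower side *Ccdc32* ran from 703 to 796 in WT-SD and from 624 to 680 in WT-HFD (log2 fold change -0.17, SE 0.05, adjusted p = 0.635). *Rabl3*, a small GTPase, ran from 98.2 to 133 and from 78.9 to 97.0 (-0.39, SE 0.12, adjusted p = 0.635), and *Zfp438*, a zinc finger gene, from 67.4 to 87.1 and from 54.0 to 66.2 (-0.36, SE 0.12, adjusted p = 0.643). The non-overlapping genes on the higher side had a median GC content of 58.1%, those on the lower side 46.2%, and all tested genes 49.4%.

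The 12 higher genes of lowest p had adjusted p-values of 0.0993 to 0.253 and log2 fold changes of 0.14 to 1.78. *Gm26822*, a long intergenic RNA of unknown function, headed them. Its normalized counts in WT-SD were 9.71, 267, 203, 316, 598 and 306, and in WT-HFD 694, 815, 915, 616, 617 and 655. No WT-SD library reached the lowest WT-HFD library, but the WT-SD libraries were widely spread, from 9.71 in replicate 3 to 598 in replicate 7. The log2 fold change was 1.78 (SE 0.33, adjusted p = 0.0993), and over the fits that left out 1 library it ran from 1.09 to 2.05. In TG it was -0.41 (SE 0.26, adjusted p = 0.822), with an adjusted p of 0.131 for the interaction.

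*Zbed5*, a gene derived from a DNA transposon, had medians of 533 and 745 and a log2 fold change of 0.29 (adjusted p = 0.162), which without surrogate variables was 0.54. *Pcsk1n*, which encodes the prohormone convertase inhibitor proSAAS, had medians of 682 and 1214, a ratio of means of 2.0 and a fitted log2 fold change of 0.38, against 1.0 without surrogate variables. *Gm21887* had a fitted log2 fold change of 1.25 (SE 0.29, adjusted p = 0.177), and in brainstem one of 1.44 (adjusted p = 0.0607).

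Several leading genes showed their difference mainly after the surrogate variables were fitted. *Mir684-1*, *Mir684-2* and *Gm13339* have near-identical copies in the genome, and which reads were counted there is uncertain. For *Gm13339* the ranges of 2299 to 4717 in WT-SD and 2562 to 4487 in WT-HFD nearly coincided, and the log2 fold change of 0.48 was 0.09 without surrogate variables. The 2 leading genes without a symbol behaved alike: ENSMUSG00002075486 went from 0.30 to 0.02 and ENSMUSG00002075967 from 0.43 to 0.08. *Mospd1*, *St13*, a co-chaperone of HSP70, and *Ppp1r2*, an inhibitor of protein phosphatase 1, had values of 0.42, 0.14 and 0.15, which without surrogate variables were 0.16, 0.04 and 0.02.

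The 12 lower genes of lowest p had adjusted p-values of 0.298 to 0.635 and log2 fold changes of -0.48 to -0.11. They included *Col9a3*, a collagen chain, at -0.48 (SE 0.12, adjusted p = 0.298), *Osgepl1*, a mitochondrial tRNA-modifying enzyme, at -0.45 (SE 0.12, adjusted p = 0.409), *Mmp14*, a membrane-bound metalloproteinase, at -0.36 (SE 0.10, adjusted p = 0.496), *Dgkg*, a diacylglycerol kinase, at -0.15 (SE 0.04, adjusted p = 0.496), and *Tnr*, tenascin-R of perineuronal nets, at -0.13 (SE 0.04, adjusted p = 0.635). *Osgepl1* ran from 106 to 129 with a median of 113 in WT-SD and from 81.5 to 114 with a median of 86.5 in WT-HFD, with 1 WT-HFD library inside the WT-SD range.

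Beside the WT values, the TG log2 fold change had the same sign for 4 of the 12 higher and 9 of the 12 lower genes, and the interaction passed the unadjusted limit for 12 and 8 of them and the adjusted limit for none. The interaction contains the contrast by which the genes were picked, so these counts are a description. In brainstem the sign was the same for 8 of 12 higher and 8 of the 11 lower genes tested there.

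**Figure D4:**
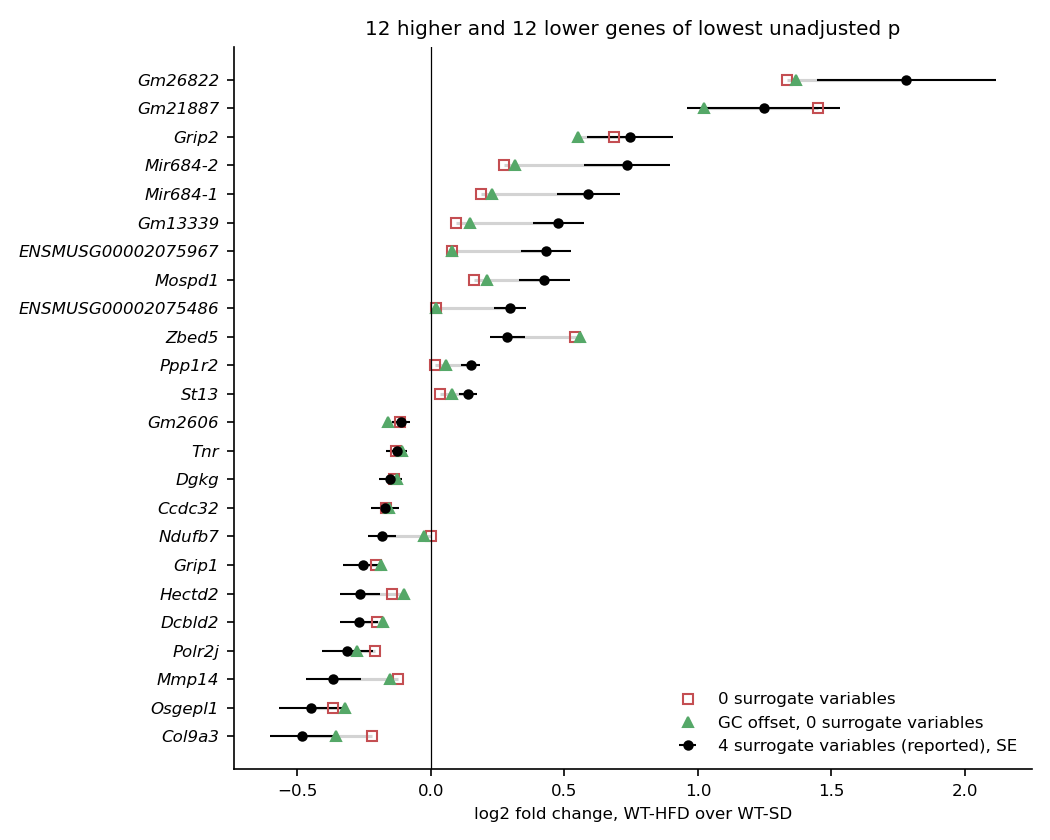
Log2 fold change of WT-HFD over WT-SD for the 12 higher and 12 lower genes of lowest unadjusted p, in the reported fit with its SE (black circles), without surrogate variables (red squares) and with a GC offset in their place (green triangles). *Gm26822* and *Grip2* stay far to the right in all 3, while *Gm13339* and ENSMUSG00002075486 move close to zero in the others.

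The diet difference followed the GC content of genes before the surrogate variables were fitted. For each library a GC slope was computed, by regressing its log2 levels relative to the mean library on the GC content of the genes, in log2 units per 10 percentage points. It ran from -0.10 to 0.07 with a median of 0.02 in WT-SD and from -0.02 to 0.17 with a median of 0.12 in WT-HFD. The means differed by 0.09 (two-sided exact permutation test, p = 0.0606, adjusted p = 0.424 over 7 library measures). Without surrogate variables, 668 genes of the GC-richest quintile were higher and 8 lower, while of the GC-poorest quintile 6 were higher and 113 lower. With the 4 surrogate variables the numbers were 137 and 56 in the richest quintile and 154 and 46 in the poorest, and the medians of the quintiles lay between 0.0002 and 0.02.

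Without surrogate variables 876 genes were higher (6.6%) and 337 lower (2.54%) at the unadjusted limit, with 0 calls. A GC offset in place of the surrogate variables gave 394 higher (2.97%) and 368 lower (2.77%), also with 0 calls, so genes on the higher side made up 60.0% of those at the limit in the reported fit, 72.2% without surrogate variables and 51.7% with the offset. The part of the GC slope in the differences of single genes was not tested beyond these fits.

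**Figure D5:**
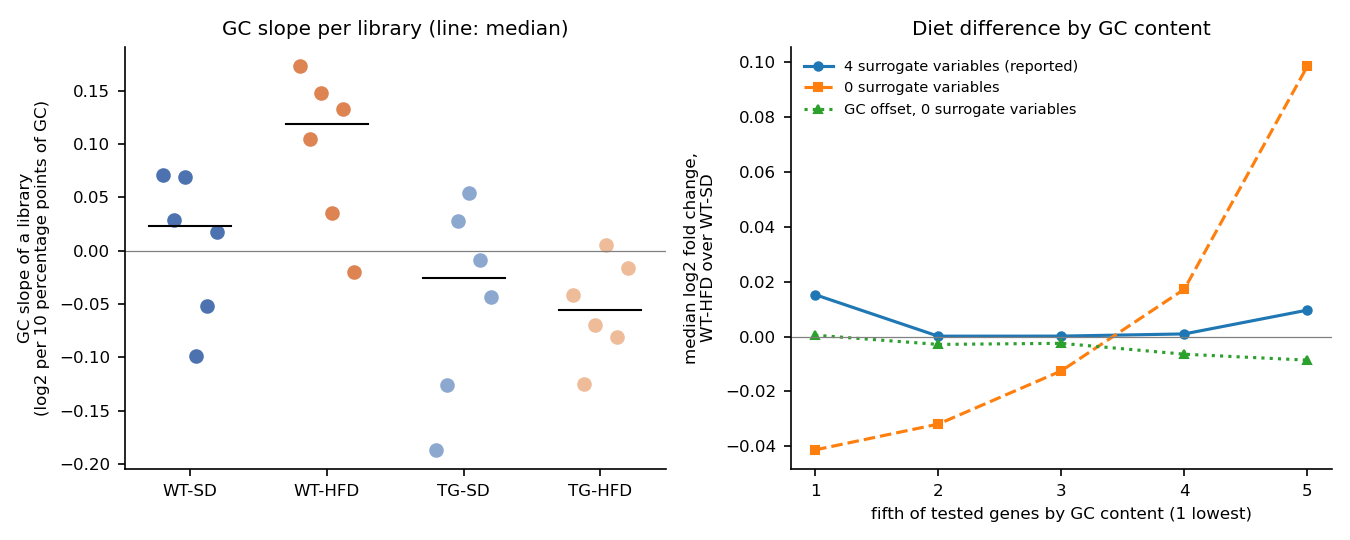
Left, GC slope of each hippocampus library by group, with the median as a line. WT-HFD libraries reach 0.17 and WT-SD libraries 0.07, with overlap. Right, median log2 fold change of WT-HFD over WT-SD in quintiles of the tested genes by GC content. The line without surrogate variables climbs from -0.04 to 0.10, and the others stay near zero.

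With 1 surrogate variable 23 genes were called (0.173%), 22 higher and 1 lower, and with 2 there were 30 (0.226%), 29 higher and 1 lower, among them all of the 23. Their median GC content was 61.2% and 61.6%, against 49.4% over all tested genes. All 30 passed the unadjusted limit in the reported fit, where the fold change was a median 0.448 times that with 2 surrogate variables. With the GC offset all 30 kept their direction, 27 passed the unadjusted limit, and the median ratio was 0.56. The 30 were picked by their p in the same counts, so their values in other fits are only a description. The 30 include *Grip2*, *Zbed5*, *Pcsk1n*, *Phf1*, *Egr4*, *Junb*, *C1qtnf4*, *Prr7*, *Irf2bp1*, *Lrfn3*, *Rprml* and *Hdac5* on the higher side and the pseudogene *Gm4540* on the lower.

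Genes at the unadjusted limit in the same direction in all 30 fits numbered 30 higher and 22 lower, and 18 of them did not overlap between the diets. The median GC content of the 30 higher genes was 55.4%, that of the 22 lower genes 51.4%, and that of all tested genes 49.4%. The 30 and 22 genes were picked after the data were seen, and are given as a description of what varies least with the processing. On the higher side they hold transcription factors and chromatin genes (*Egr3*, *Pou3f3*, *Irf2bp1*, *Phf1* and *Hdac5*) and synaptic genes (*Grip2*, *Lrfn3* and *Prr7*). Also among them are adenylyl cyclase 8 (*Adcy8*), the semaphorin *Sema4d* and genes known from myeloid cells and lymphocytes (*Itgam*, *Selplg* and *Fyb*). On the lower side they hold *Osgepl1*, *Dcbld2*, *Ccdc32*, the RNA polymerase subunit *Polr2j*, the clustered protocadherin *Pcdhga3* and *Ttr*.

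*Ttr*, transthyretin of the choroid plexus, ran from 369 to 3924 with a median of 637 in WT-SD and from 183 to 693 with a median of 566 in WT-HFD (log2 fold change -1.68, SE 0.52, adjusted p = 0.635). The 12 choroid plexus markers summed to 58.1 to 327 CPM in WT-SD and 42.9 to 90.1 CPM in WT-HFD, none of them was at 0 in all libraries, and *Ttr* was the 1 of 3 tested that passed the unadjusted limit. Whether the amount of choroid plexus left with the tissue gave the difference in *Ttr* was not tested. Ependymal markers summed to 20.9 to 27.7 CPM and 15.7 to 22.6 CPM, meningeal markers had medians of 110 CPM and 123 CPM, and blood markers summed to 164 to 574 CPM and 170 to 464 CPM, in WT-SD and WT-HFD in turn. Thalamus and striatum markers overlapped between the diets as well.

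Pseudogenes were more frequent among the lower genes than among all genes. They made up 1365 of the 13272 tested genes (10.3%), 31 of the 510 higher genes (6.08%) and 90 of the 340 lower genes (26.5%). The share among lower genes was 25.5% without surrogate variables, 23.6% with the GC offset and 27.2% with DESeq2, and 11 of the 22 genes lower in all fits were pseudogenes. In TG the share was 7.78% of the higher and 5.23% of the lower genes. The median log2 fold change of tested pseudogenes was -0.01 in WT hippocampus and -0.03 in WT brainstem. All pseudogenes together took 9.61% to 11% of the counts in WT-SD and 9.33% to 10.4% in WT-HFD (two-sided exact permutation test, p = 0.303). Reads of a processed pseudogene cannot be told apart from those of its parent gene without knowing how multiply mapped reads were counted, which is not given in the sources used here.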

How the data were processed

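The samples were hippocampi and brainstems of WT and TG mice on either diet, sequenced as bulk RNA. The authors checked reads with FastQC 0.11.9, aligned them with STAR 2.7.9a to an Ensembl mouse genome, and deposited raw counts per gene and library. The submitters' processing notes also name DESeq2 1.32.0, and how reads were counted is not given in the sources used here.

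From the deposited counts, genes whose counts averaged 50 or more over the 24 hippocampus libraries were fitted in R 4.3.3 with edgeR 4.0.16 (TMM normalization, quasi-likelihood test, Benjamini-Hochberg adjustment over all 13272 genes), with the 4 groups and 4 surrogate variables from sva 3.50.0 as covariates (num.sv with 20 permutations). The surrogate variables follow the study's methods, which used DESeq2; DESeq2 1.42.0 was an alternative here. Brainstem was fitted alike with 4 surrogate variables and both regions together with 7. Depth was 11945971 to 17328447 counts per WT library. Each SE comes from the fit of its contrast. It holds counting noise beside the spread between animals, and takes the surrogate variables as given. Single values per library were compared by exact permutation tests (scipy 1.17.1). The code was tested on simulated data. Every pair of libraries within a WT group differed beyond sampling noise (chi-square per degree of freedom 3.86 to 18.8 over 30 pairs), so none was counted once.

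Symbols, biotypes, GC content and length came from GENCODE M21, which held 13254 of the tested genes. The files use a later annotation, so no gene coordinates are given from them. Named genes were the 12 of lowest p in each direction, the 6 largest non-overlapping fold changes in each direction, up to 4 of lowest p in each list and genes the study names. Genes called in an alternative, those at the unadjusted limit in every fit, *Ttr* and further list members were added after their values were seen. The members and lists were chosen with earlier results of these data known. Values of some genes are not reported here.

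Alternatives were the number of surrogate variables, the test, the normalization, the filter, offsets for GC content and length, the replicate number as a block, WT libraries alone, and leaving out each WT library.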

Additional observations from a re-analysis of the deposited data

Results flagged for a closer look

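A library that stood apart from the other 5 of its group, its gap to the nearest other as a share of the group's range being above Dixon's 95% critical value, was found in 17 of 268 groups of 6 libraries examined, where chance gives about 1 in 20. WT-SD replicate 6 accounted for 7 of them and WT-HFD replicate 5 for 4.

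In WT-SD replicate 6 the highest value stood apart for ENSMUSG00002075967 (gap of 0.679 of the range), *Mir684-2* (0.74), *C4b* (0.765), *Ifit3* (0.661), *Ifit3b* (0.751) and *Mrpl13* (0.735), and the lowest for *Irf2bp1* (0.678). In WT-HFD replicate 5 the highest value stood apart for *C1qb* (0.73), *Ifit3* (0.742), *Ifit3b* (0.738) and *Rpl23a* (0.718). The interferon genes thus had 1 high library in each diet.

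In WT-SD replicate 3 the highest value stood apart for *Stard4* (0.82) and *Fxyd5* (0.647), and in WT-SD replicate 8 the lowest for *Ndufv2* (0.733). In WT-HFD the highest value stood apart for *Osgepl1* in replicate 7 (0.774) and *Zfp438* in replicate 4 (0.754), and the lowest for *Ccdc32* in replicate 6 (0.731).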

How the results depend on the processing

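Against 0 calls in the reported fit, 23 were made with 1 surrogate variable, 30 with 2, 3 with DESeq2, 5 with a filter on a total count of 50, 4 with filterByExpr and 13 with no filter. Genes at the unadjusted limit on the higher side were 510 in the reported fit, 876 with 0 surrogate variables, 1170 with 1, 1248 with 2, 333 with DESeq2, 994 with no filter, 335 in the WT libraries alone and 790 in those without surrogate variables. Genes on the lower side were 340 in the reported fit, 566 with 1 surrogate variable, 658 with 2, 609 with the filter on total count and 1341 with no filter. The cause was not tested. RLE normalization (0 calls, 444 higher and 378 lower), 3 surrogate variables (0 calls), a GC offset with surrogate variables estimated anew (0 calls, 440 and 407) and the length offset (0 calls, 462 and 385) stayed within 1.5 times of the reported counts.

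Leaving out 1 WT library gave 0 to 6 calls, 405 to 586 genes higher and 315 to 468 lower. There were 6 calls without WT-HFD replicate 4, 3 without WT-SD replicate 7, 2 without WT-HFD replicate 6 and 1 without WT-SD replicate 6, WT-SD replicate 8 or WT-HFD replicate 8. The difference in GC slope ran from 0.0689 to 0.113 and passed 0.05 without WT-SD replicate 3, WT-SD replicate 5 or WT-HFD replicate 8, an alternative chosen after seeing the data.

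Replicate numbers are shared between groups by the labels, but same-numbered WT-SD and WT-HFD libraries deviated together only in part, with correlations of -0.0299 to 0.332 and 3 of 6 pairs over 0.1, against -0.285 to 0.322 in pairs with other numbers. Of the WT-SD libraries 3 of 6, and of the WT-HFD libraries 3 of 6, correlated best with their own number. The replicate block gave 1 call (*Gm26822*) with the surrogate variables of the reported fit, with 465 genes higher and 326 lower. The block gave 0 calls with 975 and 434 without surrogate variables, and 0 calls with 487 and 464 with a GC offset. With the block and the surrogate variables of the reported fit, 9 cholesterol genes were lower, around a median of -0.124, against 4 in the reported fit.

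Of 3828 values of 132 named genes under the alternatives, 3727 kept direction and side of the limit, 88 became calls and 13 reversed. *Ndufb7* was 0.0191 with 1 and 0.0203 with 2 surrogate variables. *Cyc1* was -0.11 with a GC offset and -0.1064 with the block and that offset. *Gabrg1*, at 0.19 in the reported fit, was -0.0337 with 0, -0.0252 with 1 and -0.0284 with 2 surrogate variables, -0.0289 with the block and no surrogate variables and -0.0399 in the WT libraries alone without them. *Pou3f1* was -0.0242 with a GC offset and -0.019 with the block and that offset, and *Arc* was -0.12 in the WT libraries alone with their own surrogate variables. *Egr1* ran from -0.015 (without WT-SD replicate 3) to 0.2868 (without WT-HFD replicate 4). The median of immediate early genes was 0.17 without surrogate variables and 0.10 with the GC offset, that of cholesterol genes -0.05 and -0.07, and that of microglia genes 0.03 and 0.03. The interaction, the TG and brainstem diet differences (0 to 3 surrogate variables) and the region difference (0) gave 0 calls. Depth limits genes of low count, which the filter removed.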
